A study of Mus musculus with 6 samples.

Results

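Phosphatidic acid and triglyceride are built by a short chain of enzymes, and 10 genes of that chain were followed in the embryonic mouse cortex: Gpam, Agpat1 to Agpat5, Lpin1, Lpin2, Dgat1 and Dgat2. Probes were taken by gene symbol from the array platform's annotation, which gave 11 of the 21766 probes for 10 of the 15063 genes named on the array, with 2 for Lpin2 and 1 for each other gene. The genes were listed by function, but the set was selected on a measured value, the high ratio of mutant over wild type of the Agpat3 probe in these same arrays. The Agpat3 ratio is therefore described here without a test, and the question asked of the other 9 genes is whether they share it.

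The study compared cortices at stage E12.5 from embryos that lacked a working paternal copy of Mest, also called Peg1, with wild-type cortices. Mest is imprinted and expressed from the father's allele, and the mutants inherited from the father a LacZ-targeted allele without exons 3 to 8, while their mothers were wild type. Each of 6 two-colour arrays carried RNA of a different single mutant cortex against that of 1 wild-type cortex, of which the design names 3 (wild types 2, 8 and 9). Mutants 3, 5 and 6 were labelled with Cy5 and mutants 1, 4 and 7 with Cy3. The array of mutant 3 is labelled with a wild type 1 that the design text does not list. It was taken for wild type 2, which means that each wild-type cortex met 2 mutants, once in each dye.

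The pathway starts when glycerol-phosphate acyltransferases such as Gpam join a fatty acid to glycerol 3-phosphate and make lysophosphatidic acid. The AGPAT enzymes add another fatty acid to give phosphatidic acid, the branch point between membrane phospholipids and storage fat. Lipins remove the phosphate to give diacylglycerol, and the DGAT enzymes add the last fatty acid of triglyceride. The Mest protein has an alpha/beta hydrolase fold and sits in the endoplasmic reticulum membrane, where most of this chain also works, and it is known in fat tissue for rising when fat mass expands. In the embryonic cortex dividing progenitors and growing neurites draw on the same chain for membrane lipid.

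Values are given as the log2 of mutant over wild type after each array's median was set to 0, so that 1 is a doubling and -1 a halving. Between 16422 and 19564 probes had a usable value on an array, fewest for mutant 5, and 17476 probes entered the fit. Precision is limited by how few arrays there are, and a ratio says nothing of how strongly a gene is expressed. In whole tissue, fewer cells of a type and less RNA per cell cannot be told apart. The sign of all ratios rests on Mest, whose probe gave -1.36, -1.78 and -1.39 in mutants 3, 5 and 6 and -1.50, -2.07 and -1.44 in mutants 1, 4 and 7. The 9 tested markers of cortical progenitors and young neurons had fitted ratios from -0.13 to 0.12. The 5 ventral telencephalon markers ran from -0.57 to 0.27, with means on single arrays from -0.99 to 0.18, and the tested markers of endothelium, macrophages, meninges, fat and liver lay between -0.21 and 0.12. All 4 tested red blood cell markers lay below 0, from -0.42 to -0.23, and the mean of these markers on single arrays ran from -0.45 to -0.13. Their part in the results below was not tested.

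Agpat3, an acyltransferase that makes phosphatidic acid and has a preference for polyunsaturated fatty acids, had values of 2.91 and 2.23 in mutants 3 and 6 and of 2.73, 3.12 and 1.65 in mutants 1, 4 and 7. All 5 values lay far above 0, and the cell of mutant 5 is empty. The single Agpat3 probe was designed from a cDNA clone record and not from a RefSeq transcript. The fitted ratio was 2.57 with a standard error of 0.28, a 5.95-fold ratio of signals, and the SD over the 5 arrays was 0.59. It was the second highest fitted ratio of all 17476 probes, and an unnamed probe with 3.00 on 4 arrays stood above it. Its mean was 2.57 with the mutant in Cy5 and 2.50 with the mutant in Cy3, a likeness that the selection on a high ratio favours and that was not tested. The array pairs of wild types 2 and 9 averaged 2.82 and 1.94, and no such mean exists for wild type 8.

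The deposited Agpat3 values share an arithmetic feature. Before centring and turning they read 3.170, 2.415, -2.737, -3.700 and -1.369 for mutants 3, 6, 1, 4 and 7. To the third decimal, the precision of the file, these are the log2 of 9 over 1, of 16 over 3, of 3 over 20, of 1 over 13 and of 12 over 31. All 5 of the values are thus ratios of whole numbers up to 31, as are 28.0% of the 109778 values of all probes and 40.2% of those at least 1 in size. The limit of 31 was chosen after the Agpat3 values were seen. With a limit of 20 the count was 4 of 5 for Agpat3, against 16.8% of all values and 28.3% of those at least 1 in size. With a limit of 10, used for 1 of the alternatives, it was 1 of 5, against 7.83% and 14.9%. Spot intensities were not used here, so whether the numbers stand for the signals themselves, or for these reduced by a common factor, was not tested.

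**Figure D1:**
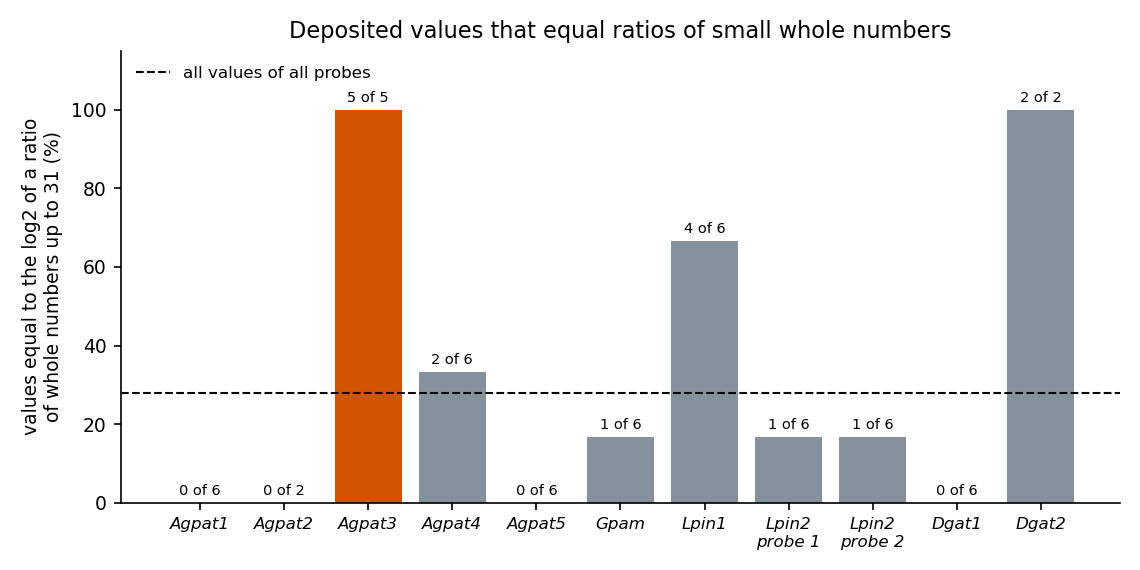
Share of the deposited values of each probe (bars, in percent, with the counts above) that are, at the file's 3 decimals, log2 ratios of whole numbers no larger than 31; the dashed line is the share over all values of all probes, 28.0%. Agpat3 (orange) has 5 of 5 and Dgat2 2 of 2, while Agpat1, Agpat5 and Dgat1 have 0 of 6 each.

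Probes of this kind scattered more than the tested probes as a whole, in a comparison not matched for the number of arrays with a value. On 248 of the 17476 tested probes, 1.42%, every value was such a ratio. Their fitted ratios had a median size of 0.59 and a median standard error of 0.61, against 0.14 and 0.16 over all tested probes. They were 108 of the 15183 probes with a fitted ratio under 0.5 in size, 79 of the 1682 from 0.5 to 1 and 57 of the 568 from 1 to 2. Among the 43 probes with a fitted ratio of 2 or more in size they were 4, Agpat3 included. The standard error of Agpat3, 0.28, lay below the median of the 248, and Agpat3 had the highest fitted ratio among them. The membership of Agpat3 in this group follows from the whole-number limit, which was chosen after its values were seen. Its rank there follows largely from its selection for a high ratio, and neither was tested.

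**Figure D2:**
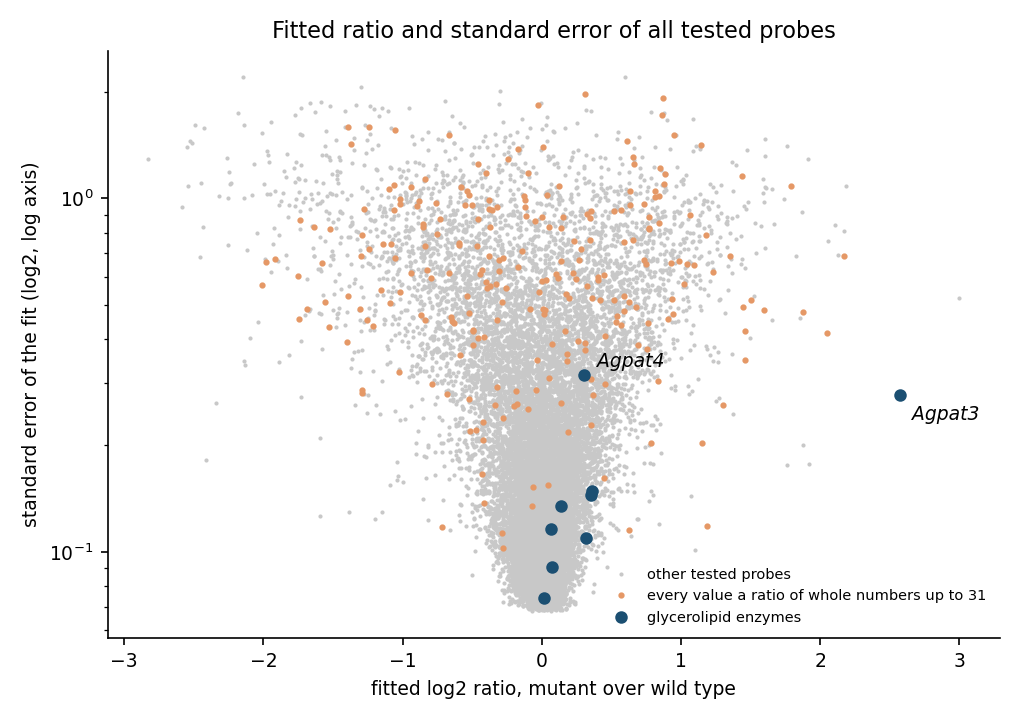
Fitted log2 ratio of mutant over wild type (horizontal) against its standard error (vertical, log axis) for the 17476 tested probes; orange points are the 248 probes whose every value equals a ratio of whole numbers up to 31, blue points are the 9 tested probes of the glycerolipid enzymes. Agpat3 lies apart at 2.57 with a standard error of 0.28, and the other 8 blue points lie between 0.02 and 0.36.

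None of the other tested acyltransferases and lipins came near the Agpat3 ratio. Of the 9 other genes, 7 had tested probes, and all 7 fitted ratios lay above 0, from 0.015 for Agpat1 to 0.36 for Agpat5, with a median of 0.25. The highest upper bound of their 95% confidence intervals was 1.10. Agpat3 was chosen for its high ratio, so its distance from these genes was not tested. Single values above the lowest of Agpat3, 1.65, occurred for Agpat4 (1.99 in mutant 5) and for the untested Dgat2 (3.45 in mutant 7). Over all tested probes 51.3% lay above 0, with a median of 0.0069. None of the 8 probes of these genes passed an adjusted p of 0.05 in limma, as did 0% of all probes, that of Mest included. Of the 8, 1 (Dgat1) had an unadjusted p under 0.05, against 3.93% of all probes. With single arrays left out that count was 0 without mutant 3 or 7, 1 without mutant 1, 2 without mutant 4 or 5 and 3 without mutant 6. The common sign leaned on mutant 5: without it the median was 0.070 and 5 of the 7 lay above 0, and without both arrays of wild type 8 the median was 0.098, again with 5 of 7.

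**Figure D3:**
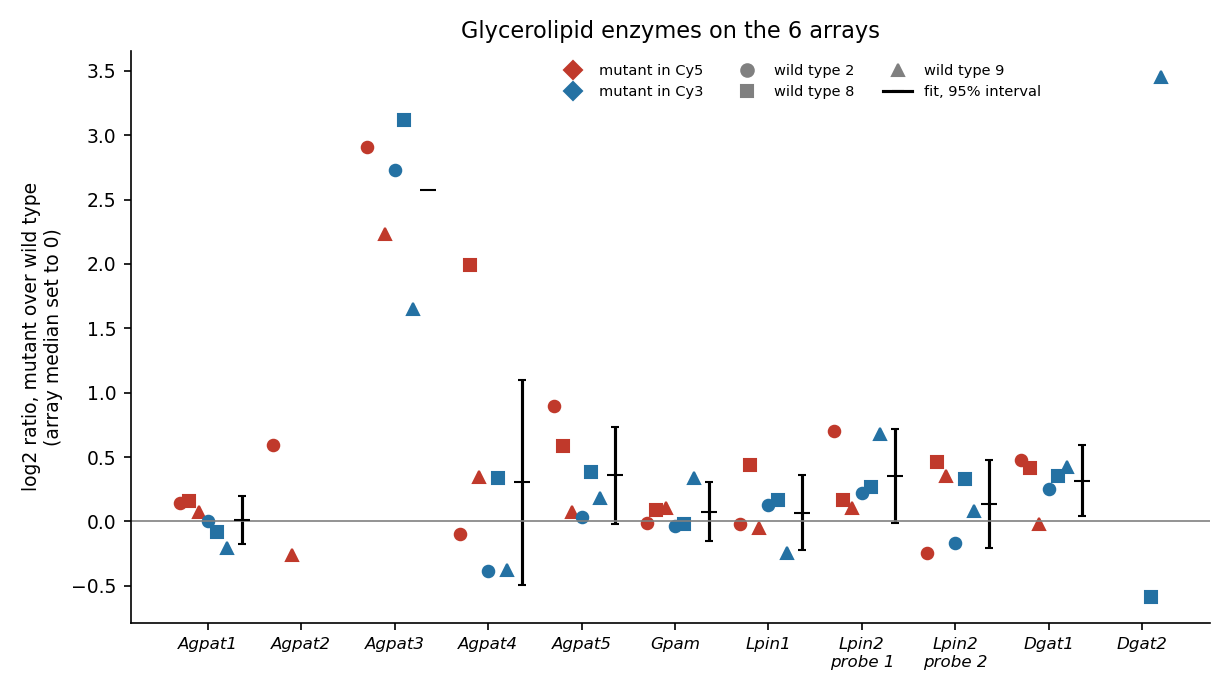
Log2 ratio of mutant over wild type (array median set to 0) of each probe on each array. Red points have the mutant in Cy5 and blue points in Cy3, the point shape gives the wild-type cortex, and black marks give the fitted ratio with its 95% confidence interval (none for Agpat3, which was chosen for its ratio, or for the untested Agpat2 and Dgat2). All 5 Agpat3 points lie between 1.65 and 3.12, and the Agpat4 value of mutant 5, 1.99, stands apart from the other 5 of that probe.

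Gpam, the mitochondrial acyltransferase of the first step, gave -0.011, 0.088 and 0.10 in mutants 3, 5 and 6 and -0.037, -0.018 and 0.33 in mutants 1, 4 and 7. The values straddled 0, and mutant 7 alone was beyond 0.2. The fit gave 0.077 with a 95% confidence interval from -0.15 to 0.30 (limma, adjusted p = 0.90, above 0 on 3 of 6 arrays). The endoplasmic reticulum enzyme of the same step, Gpat4, lay at 0.16 with a standard error of 0.19 on 6 arrays, 3 of them above 0, and Gnpat, the peroxisomal enzyme that starts ether lipids, at -0.046.

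Agpat1, a widely expressed AGPAT of the endoplasmic reticulum, had the smallest fitted ratio, 0.015 with an interval from -0.17 to 0.20 (limma, adjusted p = 0.97). Its values were 0.14, 0.16 and 0.074 with the mutant in Cy5 and 0.001, -0.085 and -0.20 with the mutant in Cy3. The values of the dye orientations did not overlap, as for 29.8% of all tested probes, and its dye term was 0.11 (limma, adjusted p = 0.33). Among the 8 probes it was the one with such a split. None of the 8 passed for the dye term, which 0.269% of all tested probes did.

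Agpat2, the AGPAT whose loss causes generalised lipodystrophy, could not be tested. It had values on 2 arrays, 0.59 in mutant 3 and -0.26 in mutant 6, of opposite sign and both with the mutant in Cy5. The other 4 cells are empty.

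Agpat4, an AGPAT prominent in brain, gave -0.094, 1.99 and 0.35 in mutants 3, 5 and 6 and -0.39, 0.34 and -0.38 in mutants 1, 4 and 7. A single array, that of mutant 5, stood far above the rest, and 3 of 6 lay above 0. The fitted ratio was 0.30 with an interval from -0.49 to 1.10 (limma, adjusted p = 0.90). Without mutant 5 it was -0.0078. Mutant 4, hybridised against the same wild-type cortex in the other dye, gave 0.34.

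Agpat5, an AGPAT found in mitochondria, was above 0 on every array, with 0.89, 0.58 and 0.070 in mutants 3, 5 and 6 and 0.036, 0.39 and 0.18 in mutants 1, 4 and 7. The 6 values spread from near 0 to almost 1 (SD 0.33), and the orientations overlapped. The fitted ratio was 0.36 with an interval from -0.017 to 0.73, a 1.28-fold difference that did not pass (limma, adjusted p = 0.90). The array pairs of wild types 2, 8 and 9 averaged 0.46, 0.48 and 0.13. Of the 8 probes beside that of Agpat3, 2 were above 0 on every array, the other being a Lpin2 probe, against 2.44% of all tested probes.

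Lpin1, the phosphatidate phosphatase mutated in the fatty liver dystrophy mouse, gave -0.019, 0.44 and -0.054 in mutants 3, 5 and 6 and 0.13, 0.17 and -0.25 in mutants 1, 4 and 7. High and low values occurred in both orientations. The fitted ratio was 0.069 with an interval from -0.22 to 0.36 (limma, adjusted p = 0.92). Of its 6 deposited values 4 were ratios of whole numbers up to 31, as were 28.0% of the values of all probes. How often values of this size equal such ratios by accident was not tested.

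Lpin2, a lipin of the same activity, has 2 probes that did not give the same picture. The first, designed from a cDNA clone record, gave 0.70, 0.17 and 0.10 in mutants 3, 5 and 6 and 0.22, 0.26 and 0.68 in mutants 1, 4 and 7, all above 0. Its fitted ratio was 0.36 with an interval from -0.0095 to 0.72 (limma, adjusted p = 0.90). The second, designed from a RefSeq transcript, gave -0.25, 0.46 and 0.35 in mutants 3, 5 and 6 and -0.17, 0.33 and 0.081 in mutants 1, 4 and 7. Both its negative values come from the arrays of wild type 2, on which the first probe gave 0.70 and 0.22. Its fitted ratio was 0.14 with an interval from -0.20 to 0.47 (limma, adjusted p = 0.90).

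Dgat1, which makes triglyceride and belongs to the membrane-bound O-acyltransferases, varied little between arrays (SD 0.18). It gave 0.48, 0.42 and -0.017 in mutants 3, 5 and 6 and 0.25, 0.35 and 0.42 in mutants 1, 4 and 7. Apart from mutant 6, all values lay between 0.25 and 0.48, in both orientations. The fitted ratio was 0.32 with an interval from 0.042 to 0.59, a 1.25-fold difference. Its unadjusted p was 0.031, and it did not pass over all probes (limma, adjusted p = 0.90, above 0 on 5 of 6 arrays). The array pairs of wild types 2, 8 and 9 averaged 0.37, 0.38 and 0.20.

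Dgat2, an enzyme of the same reaction but of an unrelated protein family, could not be tested either. It had values on 2 arrays, -0.59 in mutant 4 and 3.45 in mutant 7, both labelled with Cy3. As deposited they read 0 and -3.170, which are the log2 of 1 over 1 and of 1 over 9. A ratio as high as those of Agpat3 thus occurred on 1 of its 2 arrays and not on the other.

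In order of fitted ratio the tested genes ran Agpat3, Agpat5, Dgat1, Agpat4, Lpin2, Gpam, Lpin1 and Agpat1. The step from Agpat3 to Agpat5 was 2.21. Below it no step between neighbours exceeded 0.17, from Lpin2 to Gpam. The SDs over arrays ran from 0.14 for Gpam to 0.89 for Agpat4, and differences between neighbours were not tested. The root mean square difference from Agpat3 over the 5 arrays with an Agpat3 value was 2.23 to 2.61 for the 8 tested probes of the other genes. Because Agpat3 was chosen for its high ratio, this difference largely restates its step to the others and was not tested. A search for probes near Agpat3 likewise favours those with high ratios. Among 11833 named probes with values on those arrays, the closest was 4930465M20Rik at 1.42, followed by Vwa8, Rab3gap1, Supt7l and Syt14 at 1.47 to 1.62. 4930465M20Rik gave 2.06 and -0.70 in mutants 3 and 6 and 2.87, 2.32 and 1.40 in mutants 1, 4 and 7. Even this probe fell below 0 in mutant 6, where Agpat3 had 2.23. All 5 values of 4930465M20Rik and of Rab3gap1 were ratios of whole numbers up to 31, as were 3 of 5 for Vwa8 and Supt7l and 0 of 5 for Syt14.

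Other genes of glycerolipid metabolism were read from 7 lists of 80 genes in all, of which 50 had tested probes. None passed an adjusted p of 0.05 in limma, 19 lay above 0 and 31 below, and the median was -0.049. At an unadjusted p under 0.05 there were 4, all with a fitted ratio below 0 (Lpgat1, Pld1, Ptdss2 and Fitm1). Of all tested probes 2.33% were lower at that threshold and 1.6% higher. Pld1 lay above 0 on 3 of 6 arrays and Ptdss2 on 3 of 5, and both changed sign with the dye. The 7 tested enzymes of the main set beside Agpat3 were thus all above 0 while most of the wider pathway was not, and no test was made of this difference. Without mutant 5, or without both arrays of wild type 8, 5 of the 7 lay above 0. The share above 0 over all tested probes was 51.3%.

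**Figure D4:**
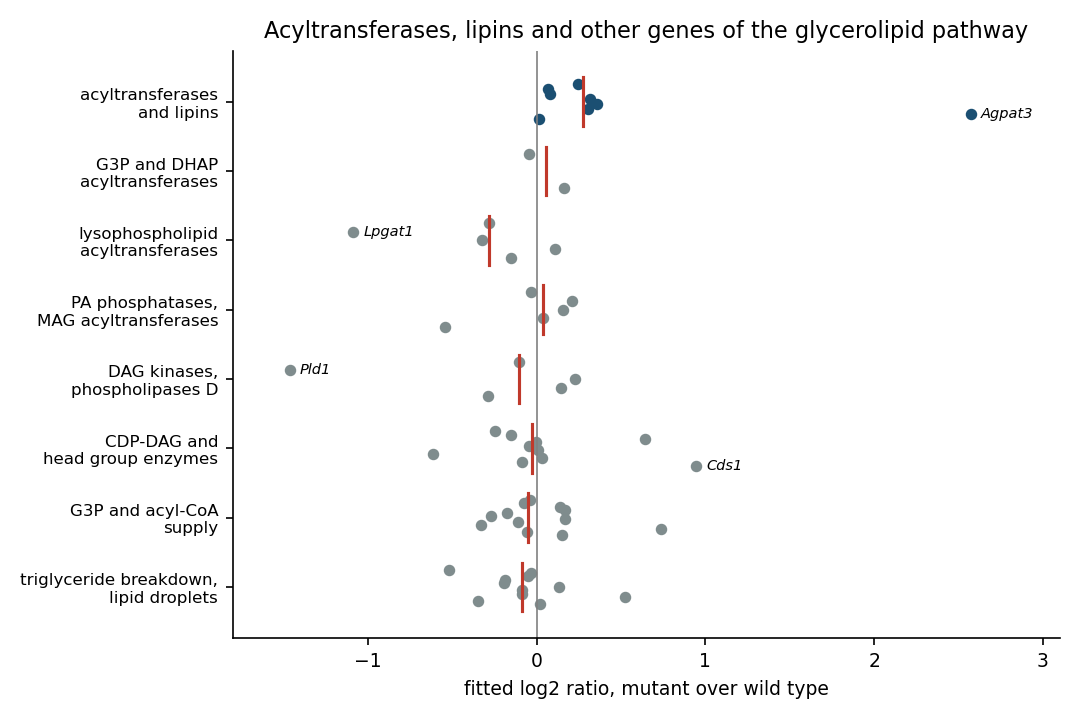
Fitted log2 ratio of mutant over wild type of the 8 tested acyltransferases and lipins (blue, top row, 1 point per gene) and of 50 other genes of glycerolipid metabolism by list (grey); red lines are medians. Agpat3 at 2.57 lies far right of all others, and Pld1 and Lpgat1 lie furthest left at -1.46 and -1.09. The values of Pld1 on single arrays changed sign with the dye.

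Acyltransferases that rebuild phospholipids from their lyso forms are the closest relatives by reaction. Of 10 listed, 5 were tested, 1 above and 4 below 0, with a median of -0.28. Lpgat1, named for acylating lysophosphatidylglycerol, lay at -1.09 (standard error 0.40) on 5 arrays, with -0.74, -0.58 and 0.48 in mutants 3, 5 and 6 and -1.04 and -2.62 in mutants 4 and 7. The value of mutant 6 alone was above 0, and the size rested most on mutant 7. Taz, which remodels cardiolipin, lay at -0.28 and Lpcat1, which rebuilds phosphatidylcholine, at -0.15.

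Enzymes that make or use phosphatidic acid and diacylglycerol by other routes gave no call. The third lipin gene, Lpin3, lay at -0.54 on 4 arrays with a standard error of 0.53, and the lipid phosphate phosphatase genes Plpp3 and Plpp2 at 0.21 and 0.16. Of the 5 tested genes of this list 3 lay above and 2 below 0. Of the 5 tested diacylglycerol kinases and phospholipases D, 2 lay above 0. Pld1, which releases phosphatidic acid from phosphatidylcholine, had a fitted ratio of -1.46, but gave -5.82, -3.04 and -4.07 with the mutant in Cy5 and 1.71, 0.68 and 1.77 in Cy3. Its sign turned with the dye on every array. Dgka lay at -0.29 and Pld2 at -0.10.

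Among 10 tested enzymes of phospholipid head groups, 4 lay above and 6 below 0, with a median of -0.024. Ptdss2, a phosphatidylserine synthase, had a fitted ratio of -0.61, with 1.46, 0.67 and 0.76 where the mutant was in Cy5 and -2.59 and -1.90 where it was in Cy3, so that it too changed sign with the dye. Chpt1 and Pcyt1a, which act in phosphatidylcholine synthesis, lay at -0.25 and 0.64, the latter with 2.70 in mutant 7 and no other value beyond 0.5 in size. Of 12 genes that supply glycerol 3-phosphate and acyl-CoA, 5 lay above and 7 below 0. Elovl6, a fatty acid elongase, was above 0 on 6 of 6 arrays at 0.17 (standard error 0.085, limma, adjusted p = 0.90). Over all tested probes 2.44% were above 0 on every array with a value. Acsl4, an acyl-CoA synthetase, had a fitted ratio of -0.33. It gave 0.50 and 0.45 where the mutant was in Cy5 and -1.13, -0.73 and -1.69 in Cy3, so that its sign turned with the dye. The 3 probes of the acetyl-CoA carboxylase gene Acaca disagreed, with 0.30, -0.77 and -0.34. The first of them also changed sign with the dye, with 1.44, 0.996 and 0.136 in Cy5 and -0.161, -0.164 and -0.465 in Cy3.

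Lipid droplet and triglyceride breakdown genes lay mostly below 0, with 8 of 11 and a median of -0.085. Bscl2, which encodes the droplet assembly protein seipin, was below 0 on 6 of 6 arrays, with -0.20, -0.28 and -0.058 in mutants 3, 5 and 6 and -0.16, -0.23 and -0.21 in mutants 1, 4 and 7. Its fitted ratio of -0.19 had a standard error of 0.076 (limma, adjusted p = 0.90). Fitm1, a protein of fat storage in the endoplasmic reticulum, was below 0 on 5 of 5 arrays at -0.52 (standard error 0.17, limma, adjusted p = 0.90). Over all tested probes 3.12% were below 0 on every array with a value. Plin4, a droplet coat protein, lay at -0.19.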

How the data were processed

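The deposited values are log2 ratios of 6 two-colour oligonucleotide arrays, read here as Cy5 over Cy3. Trizol was the extraction reagent, per the labels. The sources used here give neither scanner nor background treatment nor normalization, and scale and direction rest on the values, the dye labels and Mest. The ceiling value of 16.61 (588 values) and empty cells were treated as missing, and 232 Gapdh control spots were left out. Ratios were turned to mutant over wild type and centred on each array's median.

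The model was fitted in limma 3.58.1 (R 4.3.3, lmFit and eBayes) to probes with values on at least 4 arrays and on 2 of each dye orientation. It held a dye term and the wild-type cortex as a random block (correlation 0.246), with Benjamini-Hochberg adjustment over all 17476 probes. Embryos were separate, but wild types were shared. In 1 simulated dataset of 17476 probes, 44 of 100 probes changed by log2 1 and 78 of 100 changed by 2 were called. So were 8 unchanged probes. The changed probes put into that dataset ease the adjusted threshold. On the real arrays 0 probes were called, and Mest was not called either, so the simulated shares do not carry over to them. Gene ratios are means over probes. Named genes were all 10 enzymes, Mest, the 3 smallest p of each pathway list and the 5 probes nearest to Agpat3 by root mean square difference. Cds1 is labelled in a plot after its value was seen. The genes and lists were chosen with earlier results of these data known. Gene symbols came from the platform's annotation, and those of the 10 genes were unchanged in the gene table of GRCm38.p6. Genome positions, probe sequences and protein sequences were not used here. Alternatives covered block, dye term, centring, scaling, missing values, filters, thresholds and arrays left out.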

Additional observations from a re-analysis of the deposited data

Results flagged for a closer look

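The Agpat4 value of mutant 5, a log2 ratio of 1.99, stood apart from the other 5 arrays of that probe: its gap to the next value was 0.692 of the whole range. Among 10 probes examined for such a value (9 probes of 8 of these enzymes, and that of Mest) it was the 1 found. Since chance marks about 1 in 20 of the probes examined, 1 of 10 is no more than a description. The array of mutant 5 also had the fewest usable values, 16422.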

How the results depend on the processing

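With 26 alternatives, 1 of them chosen after seeing the data, limma called no probe at an adjusted threshold of 0.05, or of 0.10 where that was the alternative. The probes of the 7 tested enzymes beside Agpat3 with an unadjusted p under 0.05 numbered 0 to 4, and those of all probes 223 (arrays not centred) to 2761 (centred on Gapdh spots). Agpat3, chosen for its high ratio, stayed between 2.38 and 2.88 in the 20 alternatives that kept its probe. Some of these, such as the changed threshold, cannot move a ratio. Agpat3 dropped out with values required on all 6 arrays, without mutant 3 or 6, and without the arrays of wild type 2 or 9. It also did so when 1086 probes with at least 3 values equal to ratios of whole numbers up to 20 were removed. The median of the 7 was 0.50 without centring and 0.51 with Gapdh centring, where the median of all probes was 0.26 in each case, and 0.098 without the arrays of wild type 8. With single arrays left out it ran from 0.070 to 0.29. Of 182 single-gene values 8 changed sign: Agpat4 was -0.13 without the arrays of wild type 8 and -0.14 with the mutant in Cy3 only, Lpin1 -0.048 without wild type 8, and Agpat1 -0.013 without wild type 2 and -0.096 in Cy3 only. With single arrays left out Agpat4 ran from -0.0078 to 0.50, Lpin1 from -0.010 to 0.12 and Agpat1 from -0.0077 to 0.036. The cause was not tested. With the 2 arrays of a wild type left out the block could not be fitted.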
